A study of Mus musculus with 10 samples.

Results

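The 10 libraries of interscapular brown adipose tissue (iBAT) differed widely in how much skeletal muscle RNA they held, and the 4 libraries with the most were compared here with the 4 that were almost without it. For each library the counts on 10 genes of fast skeletal muscle fibres (Acta1, Ckm, Myh1, Myh2, Myh4, Mylpf, Tnnt3, Atp2a1, Tnnc2 and Pvalb) were summed and divided by the library's total count. A library was called muscle-rich where this share was at least 0.02% and muscle-free where it was under 0.001%. The 4 muscle-rich libraries were ΔGm15551 replicates 1 and 4 and wild type replicates 5 and 7, and the 4 muscle-free libraries were ΔGm15551 replicates 2 and 7 and wild type replicates 3 and 6. ΔGm15551 replicate 5 and wild type replicate 2 lay between the limits and were left out. Each side thus held 2 libraries of each genotype, 8 of 10 in all. The members were thus chosen by the counts of these 10 genes themselves, so the values of the 10 genes are a description and carry no test. In groups of 4, values are given in the order just used, ΔGm15551 replicates 1 and 4 and wild type replicates 5 and 7 for the muscle-rich class, and ΔGm15551 replicates 2 and 7 and wild type replicates 3 and 6 for the muscle-free class.

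A skeletal muscle fibre is built of sarcomeres, in which thick filaments of myosin slide along thin filaments of actin, anchored at the Z-disc and switched on by calcium released from the sarcoplasmic reticulum. The iBAT depot lies between the shoulder blades directly on the muscles of the back, and brown adipocytes arise from precursors that share early lineage markers with muscle. Both tissues are rich in mitochondria and share many genes of fatty acid oxidation and energy supply, while the sarcomere proteins belong to the fibre and uncoupling protein 1 (Ucp1), which turns the proton gradient into heat, belongs to the brown adipocyte. In a bulk sample such as these, fewer cells of a type and less RNA per cell cannot be told apart.

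All mice were of the C57BL/6N strain, aged 12 weeks, and in both genotypes and both classes they had spent 24 h alone in cages at 4 °C before dissection. ΔGm15551 mice carried a deletion of exon 1 of the lncRNA gene Gm15551 made with CRISPR/Cas9, and the others were wild type. Gm15551 had 0 counts in every ΔGm15551 library and 0 to 7 counts in the wild type libraries, with 0 in wild type replicate 7, so that its counts were too few to check single labels. Brown fat markers were abundant in every library, with Ucp1 between 5729 and 10971 CPM (counts scaled by the library total and TMM). Library totals lay between 9680976 and 14153428 counts in the muscle-rich class and between 12145547 and 15771170 in the muscle-free class. Mitochondrially encoded genes took 28.4, 21.8, 22.5 and 27.9% of the counts in the muscle-rich libraries and 21.05, 26.1, 24.4 and 23.02% in the muscle-free ones. A pair of the muscle-rich libraries, ΔGm15551 replicate 1 and wild type replicate 7, had the highest values of this share among the 10 libraries and also the highest counts of haemoglobin genes, and many of the values below are also given without them.

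**Figure D1:**
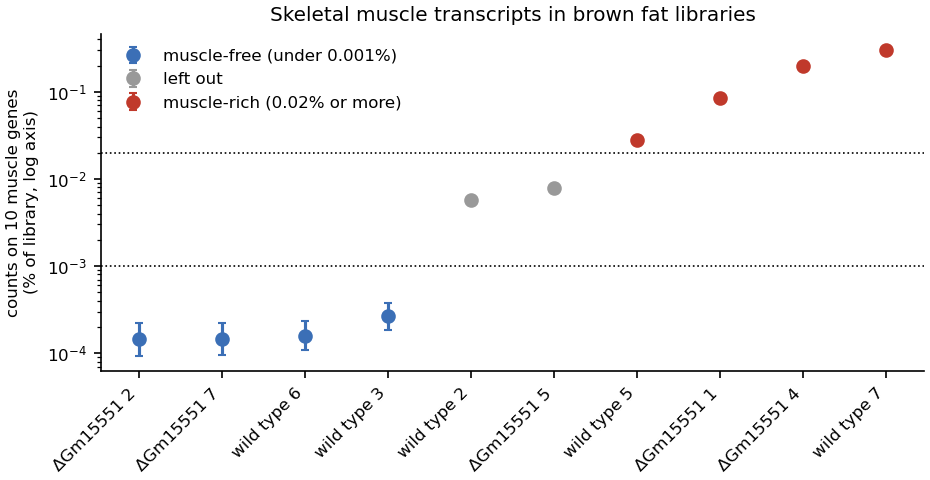
Share of each library's counts that fell on the 10 muscle genes, in percent on a log axis, with Wilson 95% intervals that cover counting error only. The dotted lines are the limits of the classes, and the libraries form 3 separate steps, with the 4 muscle-free libraries at 0.000263% or less and the 4 muscle-rich ones at 0.0279% or more.

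The share of counts on the 10 genes was 0.0843, 0.197, 0.0279 and 0.306% in the muscle-rich libraries, from 11314, 26304, 3946 and 29657 counts. In the muscle-free libraries it was 0.000144%, 0.000145%, 0.000263% and 0.000159%, from 20, 21, 32 and 25 counts. Just inside the upper limit lay wild type replicate 5 at 0.0279%, and below it ΔGm15551 replicate 5 at 0.00796% (1002 counts) and wild type replicate 2 at 0.00573% (609 counts). The nearest muscle-free library to the lower limit was wild type replicate 3. Both genotypes thus held libraries at both ends, and the muscle-rich libraries themselves spread from 0.0279% to 0.306%.

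The promoters of 3 abundant genes of the 10, an actin, a creatine kinase and a myosin, are shown first, because the 10 genes were counted or missing together. The windows run from 250 bases before to 50 bases after the start of the RefSeq gene (GRCm38.p6), 5′ to 3′ on the strand of the gene. Capitals mark E-boxes, the letters CANNTG bound by the myogenic factors of the MyoD family. Acta1 (skeletal α-actin, chr8:123894726-123895025, minus strand), Ckm (muscle creatine kinase, chr7:19410844-19411143, plus strand) and Myh4 (the myosin heavy chain of the fastest fibres, chr11:67237562-67237861, plus strand) read as follows.
Acta1: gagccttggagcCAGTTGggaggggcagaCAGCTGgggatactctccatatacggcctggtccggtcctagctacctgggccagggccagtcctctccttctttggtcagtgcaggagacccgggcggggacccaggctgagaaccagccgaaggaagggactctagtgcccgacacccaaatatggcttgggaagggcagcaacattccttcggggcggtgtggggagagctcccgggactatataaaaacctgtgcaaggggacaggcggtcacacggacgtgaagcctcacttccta
Ckm: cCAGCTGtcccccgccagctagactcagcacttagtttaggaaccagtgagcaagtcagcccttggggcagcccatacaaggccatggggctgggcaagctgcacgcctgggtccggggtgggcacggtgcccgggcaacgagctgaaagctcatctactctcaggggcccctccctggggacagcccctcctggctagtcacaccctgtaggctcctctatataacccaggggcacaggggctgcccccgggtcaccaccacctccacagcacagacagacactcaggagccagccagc
Myh4: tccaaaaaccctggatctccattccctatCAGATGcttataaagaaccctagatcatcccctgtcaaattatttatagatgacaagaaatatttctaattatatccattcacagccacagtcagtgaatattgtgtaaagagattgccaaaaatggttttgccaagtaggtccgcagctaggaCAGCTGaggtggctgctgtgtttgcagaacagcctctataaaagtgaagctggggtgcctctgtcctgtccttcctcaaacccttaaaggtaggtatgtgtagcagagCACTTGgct

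Both strands were searched. The other motifs searched were TATAAA, the CArG box of serum response factor and the MEF2 motif, whose letters can hold a TATAAA. The Acta1 window held 2 E-boxes, 1 CArG box and 1 TATAAA. Ckm had 1 E-box at its far end and none of the others. Myh4 had 3 E-boxes, 1 MEF2 motif, 1 CArG box and 3 matches of TATAAA, of which 1 lay inside the MEF2 motif. Windows were found for 9 of the 10 genes (Tnnt3 had none), 10 windows in all. An E-box was present in 7 of these 10 windows (70%) and in 133 of 153 windows of the muscle lists described below (86.9%), against 72.3% of all 32851 promoter windows. TATAAA was in 4 of the 10 (40%) and 34 of the 153 (22.2%), against 13.6% of all windows. The MEF2 motif was in 3 of the 10 windows (30%) and in 28 of the 153 (18.3%), against 3.19% of all windows. The CArG box was in 2 of the 10 (20%) and in 9 of the 153 (5.88%), against 1.63% of all windows. A match of letters is a description of the window, not a site in use.

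Myh4, the largest contributor, had 247, 538, 71.02 and 715 CPM in the muscle-rich libraries and 0.0709, 0, 0 and 0.06496 CPM in the muscle-free ones, where 0.0709 CPM stands for 1 count. Atp2a1, the calcium pump of the fast fibre's sarcoplasmic reticulum, was at 137, 451, 63.96 and 515 CPM against 0.284, 0.0744, 0.256 and 0.195 CPM. Acta1 stood at 142, 300.2, 37.05 and 498 CPM against 0.213, 0.670, 0.854 and 0 CPM. Wild type replicate 7 was the highest library for each of these and wild type replicate 5 the lowest of the muscle-rich ones. Ckm, which buffers ATP in the fibre, was at 92.6, 169.8, 28.7 and 379.9 CPM and reached a single count in 1 muscle-free library. Tnnt3 and Tnnc2, troponin subunits that carry the calcium signal to fast thin filaments, were at 26.5 to 354 and 12.5 to 212 CPM in the muscle-rich libraries and at most 0.142 and 0.0709 CPM in the muscle-free ones. Pvalb, the calcium buffer parvalbumin, was at 39.8, 60.3, 8.99 and 145 CPM and had 0 counts in all 4 muscle-free libraries. Mylpf, a light chain of fast myosin, had the highest level left in the muscle-free libraries, 0.355 to 1.02 CPM against 7.85 to 71.2 CPM. Every one of the 10 genes was thus at or near 0 on 1 side, which is what the rule selected.

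**Figure D2:**
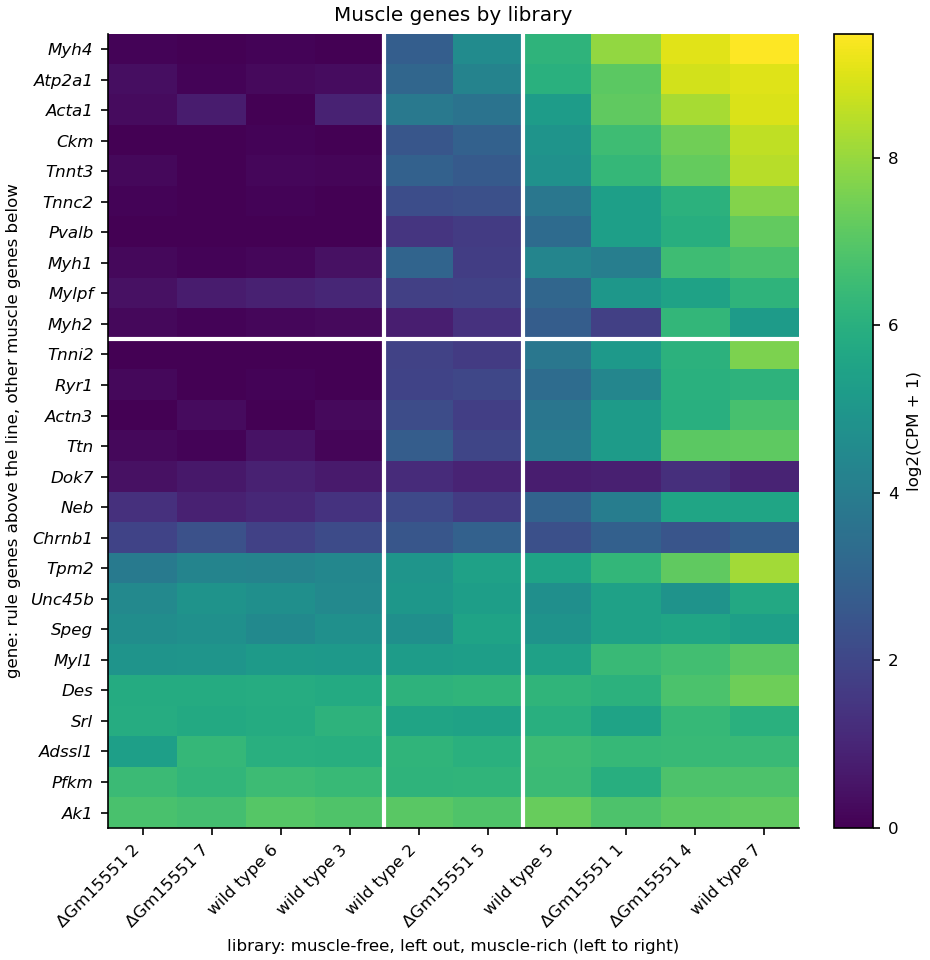
Expression of the 10 rule genes (upper block) and of 16 genes of the other muscle lists, among the most abundant of each (lower block) in each library, as log2(CPM + 1). Libraries run from muscle-free through the 2 left out to muscle-rich, and in the lower block the genes run from those absent from muscle-free libraries (Tnni2) to those that are as abundant there (Ak1).

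Beyond the 10 genes, 156 further muscle genes were listed by role, in lists written with earlier results of these data known. They share their source with the rule, so they too are described and not tested. With the 10, 166 muscle genes were in the table, and 97 of them passed the filter on low counts, many only through their level in the muscle-rich libraries. In 98 of the 166, all 4 muscle-rich libraries lay above all 4 muscle-free ones, and in 0 below. Of the 97 that passed, 70 were so separated. Across all 13784 genes tested, 3.93% were separated upwards and 4.38% downwards. Of the 166 genes, 37 had 0 counts in every muscle-free library.

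Thick filament genes summed to 212, 498, 106 and 607 CPM in the muscle-rich libraries and 45.96, 43.02, 56.2 and 56.1 CPM in the muscle-free ones. Ttn, the giant spring titin, was at 35.5, 135, 13.7 and 139 CPM against 0.142, 0.0744, 0.0853 and 0.3898 CPM. Myl1, a myosin light chain, behaved otherwise, with 86.01, 97.5, 41.6 and 132 CPM against 28.8, 29.6, 33.5 and 35.1 CPM, and so kept a clear level where muscle was all but missing. Thin filament genes summed to 153, 363, 79.7 and 735 CPM against 17.2, 23.4, 24.2 and 21.8 CPM. Tnni2, the inhibitory troponin of fast fibres, was at 33.9, 66.5, 12.5 and 193 CPM with 0 counts in every muscle-free library. Neb, the ruler of the thin filament, was at 15.4, 46.8, 7.14 and 46.1 CPM against 1.49, 0.819, 1.62 and 1.104 CPM. Tpm2, a tropomyosin also made by smooth muscle, was at 75.99, 142, 43.8 and 288 CPM against 14.2, 18.2, 19.7 and 17.7 CPM.

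Z-disc and scaffold genes summed to 257, 512, 187 and 966 CPM against 107, 118, 110.3 and 113 CPM. Actn3, the α-actinin of fast Z-discs, was at 36.2, 62.1, 12.1 and 106 CPM against at most 0.223 CPM. Des, the intermediate filament desmin, was at 67.7, 111, 73.02 and 165 CPM against 56.03, 55.5, 54.97 and 57.2 CPM, a level shared closely by the 4 muscle-free libraries and passed by all 4 muscle-rich ones. Unc45b, a myosin chaperone, overlapped between the classes, with 25.3 to 52.2 CPM against 20.9 to 28.1 CPM. Among calcium handling genes, Ryr1, the release channel of the sarcoplasmic reticulum, was at 19.6, 63.5, 9.14 and 69.7 CPM against at most 0.142 CPM. Speg, a kinase of the same membrane, was at 28.4 to 46.7 CPM against 21.9 to 26.3 CPM, and Srl (sarcalumenin) overlapped fully, with 43.95 to 80.2 CPM against 53.6 to 69.8 CPM. Genes of muscle metabolism differed less than the sarcomere genes, with sums of 562, 817, 567 and 1017 CPM against 349, 498, 427 and 423 CPM. Adssl1, an enzyme of the purine nucleotide cycle, was at 80.6, 83.96, 90.7 and 84.4 CPM against 39.5, 79.1, 60.3 and 62.95 CPM. Ak1 (adenylate kinase) and Pfkm (muscle phosphofructokinase) overlapped, at 113 to 156 and 60.8 to 114 CPM against 99.7 to 124 and 74.4 to 89.6 CPM.

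The level that a muscle gene kept in the muscle-free libraries thus divided the lists. Of the 97 tested muscle genes, 56 had a mean under 1 CPM there, 23 had 1 to 10 CPM and 18 had 10 CPM or more. Of the 18, 4 were at least 2-fold higher in the muscle-rich class on the fitted scale.

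Mb, the oxygen store myoglobin, did not follow the classes. It was at 48.3, 53.8, 25.6 and 94.5 CPM in the muscle-rich libraries and at 0.496, 98.3, 7.68 and 2.34 CPM in the muscle-free ones. ΔGm15551 replicate 7 had the highest Mb level of all 10 libraries while its counts on the 10 rule genes were 21. Sln (sarcolipin), the inhibitor of the muscle calcium pump, reached at most 1.41 CPM and was not tested. Genes of muscle precursors and of the neuromuscular junction were little counted. Of 17 such genes 3 were tested. Among them were Chrnb1, a subunit of the acetylcholine receptor, at 3.997 to 6.51 against 2.599 to 4.09 CPM, and Dok7 at 0.714 to 1.41 against 0.355 to 0.845 CPM. The satellite cell marker Pax7 had 0 counts in all 8 libraries of the comparison, so that it was not detectable at this depth.

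The 10 rule genes summed to 827, 1951, 282 and 3034 CPM in the muscle-rich libraries. The proportions of other muscle genes to the summed counts on these 10 were compared among the 4 libraries, for the 27 other muscle genes that were under 1 CPM in every muscle-free library and had at least 20 counts in every muscle-rich one. This choice leaves out genes that were low in any muscle-rich library, and with them the most variable ones, so the values describe the 27 alone. For 21 of the 27 the highest proportion was less than 2-fold the lowest, with a median range of 1.62-fold. Casq1, which stores calcium in the sarcoplasmic reticulum, amounted to 1.05% to 1.22% of the sum, the narrowest range of the 27. The proportion of Mybpc2 (fast myosin-binding protein C) varied 1.24-fold, that of Ckmt2 (mitochondrial creatine kinase) 1.26-fold and that of Actn3 1.37-fold. Myh7 varied most among the 27, from 0.38% to 1.57% (4.14-fold). Among the genes left out by the count minimum, Xirp1, an actin-binding repeat protein, varied 21.8-fold. Csrp3, a LIM protein of the Z-disc with 0 counts in the muscle-free libraries, went from 0.0265% in ΔGm15551 replicate 1, on 3 counts, to 1.58% in wild type replicate 7.

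The heavy chains of myosin set fibre types apart, with Myh4, Myh1 and Myh2 in fast fibres and Myh7 in slow ones. Per kilobase of exon, Myh4 made up 92.9%, 75.6%, 74.1% and 82.4% of these 4 chains in the muscle-rich libraries. Myh1 accounted for 5.49%, 12.3%, 18.9% and 11.8%. Myh2 amounted to 0.787%, 9.12%, 5.27% and 3.49%, and Myh7 to 0.825%, 3.01%, 1.72% and 2.34%. The fastest chain thus led in all 4 libraries, most of all in ΔGm15551 replicate 1. In the libraries left out the shares were 86.6% Myh4 for ΔGm15551 replicate 5, and 45% Myh4 with 50.6% Myh1 for wild type replicate 2, the latter from 69 and 82 counts. Myh1, Myh2 and Myh4 are near-identical neighbours on chromosome 11, so the division of reads among them is an estimate and uncertain. The slow fibre gene Myh7 was at 3.14, 30.7, 2.36 and 29.1 CPM against 0, 0.0744, 0.0853 and 0.06496 CPM.

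**Figure D3:**
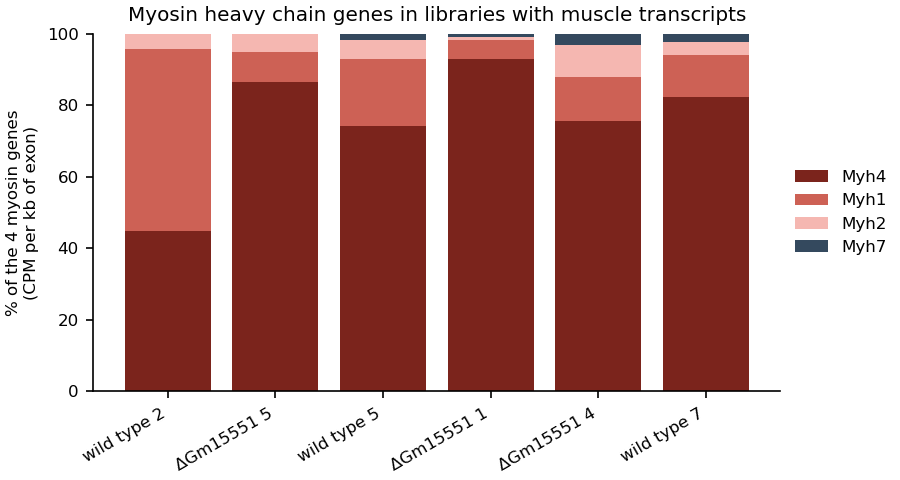
Shares of 4 myosin heavy chain genes per kilobase of exon, in percent of their sum, in the 6 libraries with a measurable amount of muscle transcripts, ordered by that amount. Myh4 is the largest part of every bar except that of wild type replicate 2, where Myh1 reaches 50.6% on few counts.

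The question of the comparison across all genes was whether libraries that differ in muscle transcripts differ elsewhere too. A total of 13784 genes were tested with edgeR, with genotype as a term. No gene passed at an adjusted p under 0.05 (0%), with the smallest adjusted p at 0.197. Without adjustment 2010 genes (14.6%) had a p under 0.05, of which 1097 (7.96%) were higher and 913 (6.62%) lower in the muscle-rich class. With library totals in place of TMM scaling, the split of such genes moved from 54.6% to 76.4% higher. limma-voom also called 0 genes and DESeq2 called 180 (1.31%), of which 63 and 49 were genes off the muscle lists that were higher and lower. The other 68 were genes of the muscle lists, whose direction follows from how the libraries were chosen, so nothing is read from them. The 63 include muscle genes missing from the lists, such as Alpk3, Apobec2, Usp13 and Myo18b. They are thus not a count of genes outside muscle. Since nothing passed in edgeR, the differences below are given as values. Leaving out wild type replicate 5 gave 130 calls and leaving out wild type replicate 7 gave 30, while leaving out any other single library gave 0. Without ΔGm15551 replicate 1 and wild type replicate 7, 726 of 14190 genes (5.12%) had an unadjusted p under 0.05 and 49 were called, 9 of them off the muscle lists. Among the 9 were Alpk3, Apobec2, Usp13 and Myo18b, again muscle genes missing from the lists.

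Among genes off the muscle lists, the 3 higher ones with the smallest p were Alpk3, Sptb and Clip4, and in each the classes did not overlap. These 3 were taken as muscle genes missing from the lists, so they too are described and not tested. Nothing is read from their rank or their separation. Alpk3, a kinase of the sarcomere, was at 3.51, 8.83, 2.64 and 9.51 CPM against 0.922, 1.04, 0.683 and 0.585 CPM. Sptb, the β-spectrin of red cells and muscle membranes, was at 3.51, 8.75, 2.21 and 8.39 CPM against 0.496, 0.968, 0.939 and 0.974 CPM. Clip4 was at 1.61, 3.12, 0.857 and 5.01 CPM against 0.213, 0.223, 0.256 and 0.325 CPM. It had 3 to 5 counts in each muscle-free library and passed the filter on low counts through the muscle-rich ones. Further muscle genes missing from the lists were picked after their values were seen. They included Apobec2 (1.64 to 20.8 against 0 to 0.0853 CPM), Usp13 (2.498 to 26.9 against 0 to 0.171 CPM) and Myo18b (0.785 to 16.7 against 0 to 0.0709 CPM). The imprinted noncoding RNA H19 was picked with them (2.78 to 26.8 against 0.455 to 1.04 CPM). In each of these 4 the classes did not overlap. The paper names H19 as a regulator in brown fat, and its source in these samples was not tested.

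The genes used by both muscle and brown fat went both ways. Of the 28 tested, 13 were higher and 15 lower in the muscle-rich class, with log2FC from -0.62 to 2.26 and a median of -0.01, against 0.00489 over all genes. With library totals alone these medians were 0.0494 and 0.0606. An unadjusted p under 0.05 was found for 4 higher and 1 lower (17.9% of the list, against 14.6% of all genes). All muscle-rich libraries lay above all muscle-free ones in 14.3% of the list, against 3.93% of all genes. Without ΔGm15551 replicate 1 and wild type replicate 7, 21 of 29 were higher and 8 lower, 6 of the 29 higher at an unadjusted p under 0.05, against 5.12% of all genes. Hspb6, a small heat shock protein, was at 20.7, 39.1, 26.5 and 55.2 CPM against 10.6, 17.6, 17.7 and 17.5 CPM. Tpm1 (tropomyosin 1) was at 101, 123, 66.6 and 216 CPM against 44.3, 56.8, 59.2 and 52.9 CPM, and Cryab (αB-crystallin) at 9.51, 18.9, 8.21 and 66.4 CPM against 4.18, 3.87, 6.74 and 4.94 CPM. Ckb, the creatine kinase of brown fat, was at 824, 818, 1059.6 and 736 CPM against 595, 611, 568 and 549.8 CPM. In all 4 the muscle-rich libraries lay above the muscle-free ones, and for Ckb the highest was wild type replicate 5, which held the least muscle of its class. Esrrg, a nuclear receptor of oxidative tissues, was at 13.9, 23.4, 27.4 and 12.9 CPM against 26.8, 27.1, 35.3 and 30.5 CPM (log2FC -0.62, and -0.23 without ΔGm15551 replicate 1 and wild type replicate 7). Cox8b and Pdk4, a respiratory chain subunit and the kinase that shuts off pyruvate oxidation, overlapped, at 486 to 804 and 1005 to 2409.5 CPM against 416 to 544 and 1856 to 2288 CPM (adjusted p = 0.359 and 0.396).

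**Figure D4:**
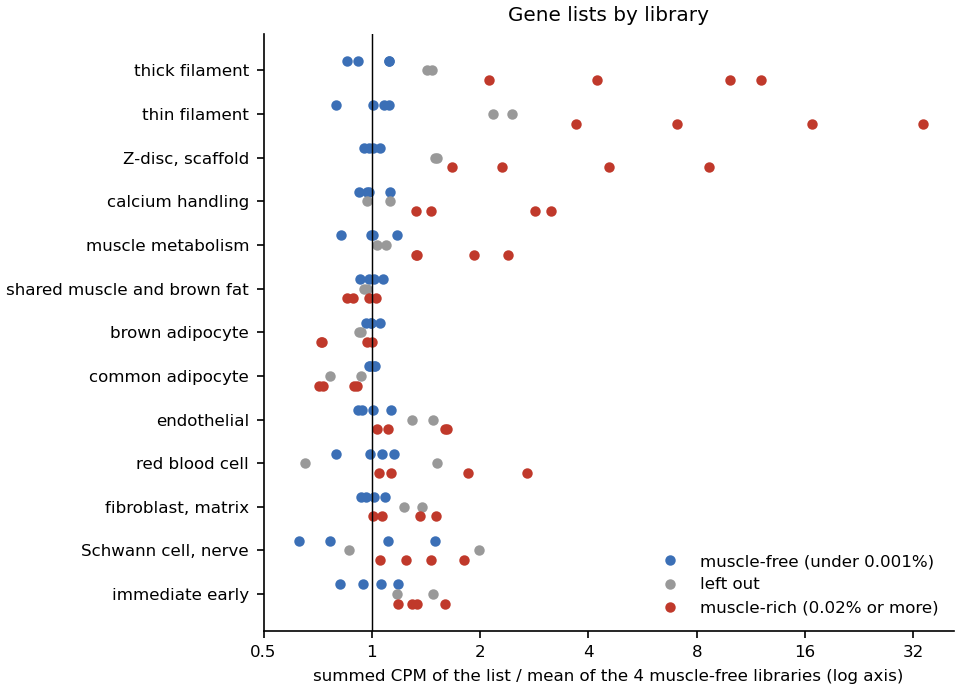
Summed CPM of each gene list in each library, divided by the mean of the 4 muscle-free libraries, on a log axis. The sarcomere lists reach 33.97 in wild type replicate 7. With the TMM scaling used here, brown adipocyte, endothelial, red blood cell and fibroblast lists set 2 muscle-rich libraries apart. With library totals, 3 muscle-rich libraries are above the muscle-free range for the endothelial and fibroblast lists. For the brown adipocyte list 2 are then below it and 1 above. The common adipocyte list is below the muscle-free range in all 4 muscle-rich libraries with TMM scaling, and in 3 with library totals.

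Ucp1 was at 5729, 9159, 8247 and 6413 CPM in the muscle-rich libraries and at 10971, 10938, 8501 and 8989 CPM in the muscle-free ones (7387 ± 1589 against 9849.5 ± 1291, SD, n = 4 each). The classes overlapped, since ΔGm15551 replicate 4 reached the level of the muscle-free libraries. Within each genotype, however, no muscle-rich library reached a muscle-free one, and the log2FC was -0.41 ± 0.19 (SE, adjusted p = 0.344). An exact permutation test within genotype (two-sided, 36 arrangements) gave p = 0.0556, which is the smallest p this design allows. The list of 24 brown adipocyte genes had a median log2FC of -0.19, with 18 genes lower and 6 higher. An unadjusted p under 0.05 was found for 5, all lower (20.8% of the list, against 14.6% of all genes in either direction and 6.62% lower). These were Nrg4 (a secreted factor of brown fat), Ebf2 and Prdm16 (transcription factors of brown adipocyte identity), Gk (glycerol kinase) and Otop1 (a proton channel). Prdm16 was at 25.5, 31.2, 35.6 and 21.7 CPM against 37.6, 39.7, 37.6 and 35.7 CPM, and the classes did not overlap with TMM scaling but did with library totals. Gk was at 472, 900.4, 766 and 359 CPM against 1060.1, 805, 1119 and 902 CPM, with the low values in ΔGm15551 replicate 1 and wild type replicate 7 (log2FC -0.65, and -0.22 without them). Cidea (a lipid droplet protein), Dio2 (which activates thyroid hormone), Elovl3 (a fatty acid elongase) and Ppargc1a (the coactivator of mitochondrial biogenesis) overlapped between the classes, with log2FC of 0.21, -0.19, -0.10 and -0.20.

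Summed over the list, brown adipocyte genes were at 16550, 22753, 21961 and 16444 CPM in the muscle-rich libraries against 22530, 23856, 22558 and 21883 CPM in the muscle-free ones. ΔGm15551 replicate 1 and wild type replicate 7 were thus low, while the others were within the muscle-free range. With library totals ΔGm15551 replicate 4 was just above that range, at 23024 CPM against at most 22863 CPM. Without ΔGm15551 replicate 1 and wild type replicate 7 the median log2FC of the list was -0.02, with 1 gene lower and 2 higher at an unadjusted p under 0.05, and that of Ucp1 was -0.17. The 19 genes common to adipocytes summed to 37917, 48380, 47583 and 39028 CPM against 52568, 52247, 54404 and 54197 CPM, so that with TMM scaling all 4 muscle-rich libraries were below all 4 muscle-free ones. This did not hold with library totals, by which ΔGm15551 replicate 4, at 48957 CPM, was above the muscle-free ΔGm15551 replicate 7, at 48611 CPM. The largest terms of this sum were Scd1, Fabp4 and Fasn. Fasn, the fatty acid synthase, was at 3397, 6743, 7406 and 5873 CPM against 8355, 13222, 6822 and 11481 CPM (log2FC -0.78 ± 0.28, SE, adjusted p = 0.318). The desaturase gene Scd1 overlapped widely, at 8429.8, 15264, 12597 and 5995 CPM against 13390, 10212, 22277 and 12487 CPM. Dgat1 and Dgat2, which both make triglyceride, had log2FC of opposite sign. Dgat1 was at 709, 572, 737 and 717 CPM against 475, 498, 512 and 541 CPM and Dgat2 at 1002, 1209, 1708 and 1092 CPM against 2088, 1506, 1326 and 2262 CPM. Fabp4 (the fatty acid binding protein), Adipoq (adiponectin) and Pparg (the master regulator of adipocytes) had log2FC of 0.03, -0.08 and -0.28, all within the spread of the libraries. Of the 19 genes, 1 was higher and 2 were lower at an unadjusted p under 0.05 (15.8%, near the 14.6% of all genes). Without ΔGm15551 replicate 1 and wild type replicate 7 this was 2 higher and 0 lower, against 5.12% of all genes, with a median log2FC of -0.03 in place of -0.23, and that of Fasn was -0.49. Lep (leptin), a marker of white fat, was at 5.92, 4.895, 11.6 and 7.47 CPM against 8.79, 2.53, 10.9 and 18.3 CPM.

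Markers of other cell types differed in part with the classes. All 13 endothelial genes tested were higher in the muscle-rich class, 6 of them at an unadjusted p under 0.05 (46.2%, against 14.6% of all genes), with a median log2FC of 0.40. Kdr, the main receptor of vascular endothelial growth factor, was at 528, 345, 299 and 463 CPM against 285, 315, 332 and 263 CPM. Pecam1, an adhesion protein of endothelium, was at 274, 184, 169 and 258 CPM against 152, 181, 186 and 141 CPM. The sums of the list were 2487, 1731, 1610.3 and 2528 CPM against 1464, 1767, 1574 and 1429.9 CPM. With TMM scaling only ΔGm15551 replicate 1 and wild type replicate 7 were above the muscle-free range. With library totals ΔGm15551 replicate 4 was above it too, at 1752 CPM against at most 1644 CPM. Without ΔGm15551 replicate 1 and wild type replicate 7, 0 of the 13 genes had an unadjusted p under 0.05 in edgeR and the median was 0.05.

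Red blood cell genes showed the same 2 libraries. Hba-a1, an α-globin, was at 146, 83.8, 92.2 and 246 CPM against 81.5, 70.3, 86.9 and 65.7 CPM, and 4 of 5 genes of the list had an unadjusted p under 0.05, all higher (80%, against 14.6% of all genes). Without both libraries this was 0 of 5, with a median log2FC of 0.15 in place of 0.78. Globin genes have near-identical copies, so single levels are uncertain. Fibroblast and matrix genes were higher in 17 of 19 (median 0.27), with 1 at an unadjusted p under 0.05 (5.26%), and summed to 2692, 1909, 1794 and 2424 CPM against 1669.6, 1722, 1811 and 1939 CPM. Macrophage and lymphocyte genes had 2 of 11 at that level, both higher (C1qa and C1qb, complement genes of macrophages), which at 18.2% is near the 14.6% of all genes. Smooth muscle and pericyte genes had 4 of 12 (33.3%), all higher (Kcnj8, Pdgfrb, Lmod1 and Tagln). Of 17 tendon and fascia genes 4 were tested and none had an unadjusted p under 0.05 in edgeR, and their sum was 19.2, 20.7, 22.3 and 17.4 CPM against 15.8, 21.6, 16.6 and 12.8 CPM. Krt10 was the only skin gene tested, at 2.299 to 3.95 against 2.41 to 2.92 CPM. White adipocyte markers had 1 of 10 at that level (Nnat). Without both libraries 13 of 20 fibroblast and matrix genes were higher and 7 lower, with a median of 0.06. None of the fibroblast, macrophage, smooth muscle or white adipocyte genes then had an unadjusted p under 0.05 in edgeR, and 1 tendon gene of 6 did. The part of these cell types in the other differences was not tested.

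Immediate early genes, which respond within minutes to a stimulus or to handling, summed to 332, 278, 268 and 246 CPM against 169.9, 245, 219.9 and 197 CPM, with all 4 muscle-rich libraries above the muscle-free ones. All 10 genes tested were higher, 3 of them at an unadjusted p under 0.05 (30%, against 14.6% of all genes), with a median log2FC of 0.35. These values were 9 of 10, 2 (against 5.12% of all genes) and 0.20 without ΔGm15551 replicate 1 and wild type replicate 7. Atf3 was at 12.3, 11.7, 11.7 and 9.51 CPM against 6.81, 8.86, 8.45 and 8.25 CPM and did not overlap. Nr4a1, the largest difference of the list, was at 61.1, 61.5, 51.8 and 19.03 CPM against 8.65, 30.6, 26.9 and 12.1 CPM (log2FC 1.26 ± 0.53, SE). Jun overlapped by little, at 45.7, 47.99, 43.2 and 38.7 CPM against 25.7, 41.9, 30.9 and 29.2 CPM. Nfkbia, an inhibitor of NF-κB picked after its values were seen, was at 60.2, 52.3, 49.8 and 68.4 CPM against 25.4, 32.01, 42.4 and 40.1 CPM.

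Among the genes lower in the muscle-rich class, those with the smallest p off the muscle lists were Zbtb16, Irs3 and A830018L16Rik. Zbtb16, a zinc finger transcription factor, was at 14.8, 17.1, 27.1 and 16.6 CPM against 48.5, 46.2, 27.9 and 49.5 CPM (log2FC -1.20 ± 0.23, SE, adjusted p = 0.197). The classes did not overlap, but the libraries left out were the highest of all, at 58.6 and 90.7 CPM. Across 22 alternatives the log2FC ran from -1.59, in mice of the lower number series of the mouse identifiers, to -0.24, with the libraries left out counted as muscle-rich, and it was -0.96 without ΔGm15551 replicate 1 and wild type replicate 7. Irs3, an insulin receptor substrate, was at 5.27, 6.38, 3.57 and 3.17 CPM against 17.4, 9.305, 5.46 and 8.71 CPM and overlapped slightly. A830018L16Rik was at 3.44, 4.75, 4.07 and 3.38 CPM against 14.1, 6.92, 6.401 and 10.9 CPM. Ppp1r3c, Mme and Acvr1c were picked after their values were seen, and in each the classes did not overlap, except for Acvr1c with library totals. Ppp1r3c, which targets a phosphatase to glycogen, was at 41.03, 60.01, 63.5 and 53.6 CPM against 95.96, 78.01, 97.6 and 81.9 CPM, and 45.03 and 42.03 CPM in the 2 libraries left out. Mme, the membrane peptidase neprilysin, was at 79.1, 116, 94.9 and 69.8 CPM against 190.5, 138, 139 and 148 CPM. Acvr1c, a receptor of the activin family, was at 36.3, 60.7, 45.4 and 35.5 CPM against 99.7, 64.02, 66.2 and 65.3 CPM.

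Genes of sterol synthesis and uptake were also gathered after their values were seen, so their count is a description. Of 23 tested, 22 were lower in the muscle-rich class, with log2FC from -0.93 to 0.02 and a median of -0.48. In 6 of the 23 all muscle-rich libraries lay below all muscle-free ones, a separation found in 4.38% of all genes. With library totals this was 4 of the 23, against 1.76% of all genes. Sqle, which oxidises squalene, was at 14.3, 35.1, 27.6 and 18.9 CPM against 53.3, 41.02, 39.3 and 48.2 CPM. Insig1, the sensor that holds the sterol regulator in place, was at 170.3, 272, 193 and 187 CPM against 358, 296, 321 and 319 CPM. Cyp51 and Sc5d, late enzymes of cholesterol synthesis, were at 28.6 to 48.5 and 47.3 to 80.7 CPM against 54.4 to 64.6 and 94.5 to 157 CPM. None of these 4 genes overlapped between the classes. ΔGm15551 replicate 1 was the lowest muscle-rich library for Insig1, Sqle and Sc5d, and ΔGm15551 replicate 4 the highest. Without ΔGm15551 replicate 1 and wild type replicate 7 all 23 genes were lower, with a median of -0.30.

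**Figure D5:**
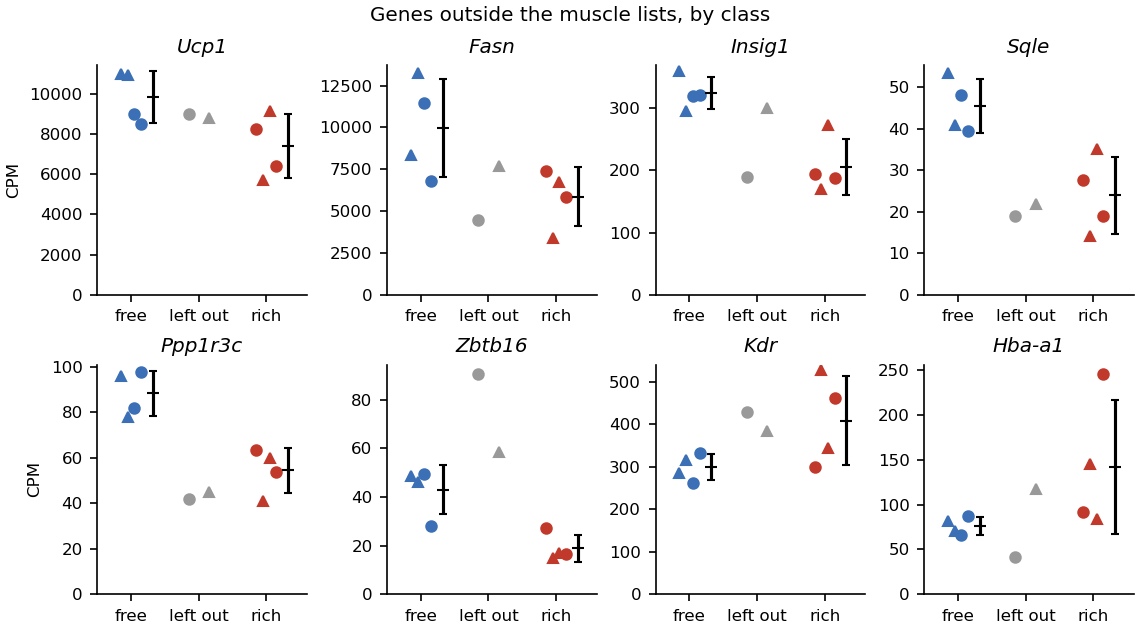
CPM of 8 genes outside the muscle lists in muscle-free, left out and muscle-rich libraries (triangles ΔGm15551, circles wild type), with the mean and SD of each class of 4 beside its points. Ucp1 and Fasn overlap between the classes, Insig1, Sqle, Ppp1r3c and Zbtb16 are lower in all muscle-rich libraries, and Kdr and Hba-a1 are high in 2 of the 4.

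The 2 libraries left out were set against the midpoint of the class means of log2 CPM for each gene. Among genes off the muscle lists that were higher in the muscle-rich class at an unadjusted p under 0.05 (1018 genes), 79.7% were nearer to the muscle-rich mean for the ΔGm15551 library left out (replicate 5) and 73.1% for the wild type one (replicate 2). Among those that were lower (913 genes) the shares were 83.1% and 80.4%. For the 11756 genes above that p, which set the background, they were 61.5% and 61%. For the muscle list genes beyond the 10 rule genes, at an unadjusted p under 0.05 (69 genes), they were only 17.4% and 34.8%. Most of these 69 genes were thus nearer to the muscle-free mean in both libraries left out, unlike the genes off the lists. For the 10 rule genes the shares were 60% and 50%. The shares of muscle genes are a description. With library totals in place of TMM scaling the shares of the higher genes were 83.5% and 82.3% and those of the lower ones 76.5% and 59.6%, against a background of 62.1% and 61.1%, so that for wild type replicate 2 the lower genes were then no more often on the muscle-rich side than the background. Endothelial genes summed to 2309 and 2010.3 CPM in them, above every muscle-free library, and common adipocyte genes to 49626 and 40709 CPM, below every muscle-free library. With library totals the latter were 51457 and 42858 CPM, and ΔGm15551 replicate 5 was then within the muscle-free range.

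Whether the difference between the classes depended on the genotype was tested by an interaction term. No gene passed at an adjusted p under 0.05 in edgeR (smallest 0.741), 148 genes (1.07%) had an unadjusted p under 0.05, and limma-voom called 0 and DESeq2 7. Among the lists, Schwann cell and nerve genes had the most at an unadjusted p under 0.05, 4 of 10. Of the 10 interaction terms 9 were positive, that is, the log2FC was higher among ΔGm15551 than among wild type libraries, with a median of 1.03. The list summed to 228 and 133 CPM in the muscle-rich ΔGm15551 libraries against 96.1 and 79.2 CPM in the muscle-free ones, while the wild type libraries overlapped, at 184 and 157 CPM against 189 and 139.7 CPM. Of the 4 muscle-rich libraries 1 lay above the range of all muscle-free ones. The log2FC of the 10 genes was above 0 in the class as a whole for all 10, with a median log2FC of 0.67 and 3 at an unadjusted p under 0.05 (30%, against 14.6% of all genes). Without ΔGm15551 replicate 1 and wild type replicate 7 the median was 0.31, with 3 genes at that level, against 5.12% of all genes.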

How the data were processed

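Polyadenylated RNA from iBAT of 5 ΔGm15551 and 5 wild type mice was sequenced. The authors deposited estimated counts per gene, made with bcl2fastq, cutadapt and Salmon on GRCm38 (versions not stated, and the strand setting is not given in the sources used here). The deposited values were whole numbers, so no rounding was needed. Library totals were 9680976 to 15771170 counts, and intervals of shares (Wilson, 95%) cover counting error only.

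Libraries were put in classes by the share of counts on 10 muscle genes (at least 0.02% or under 0.001%), and 2 of 10 were left out. The members and the gene lists were chosen with earlier results of these data known. Genes were filtered with filterByExpr (minimum count 10, minimum total 15), scaled by TMM and fitted with edgeR 4.0.16 (robust quasi-likelihood, R 4.3.3) with class and genotype as terms, with Benjamini-Hochberg adjustment across the 13784 genes tested (threshold 0.05). The SE of a log2FC was derived from the F statistic. CPM values used TMM over all 10 libraries. Mice are labelled as separate animals, and p-values measure the spread between them. DESeq2 1.42.0 left the adjusted p of 535 genes as NA. limma-voom (3.58.1), other scalings, filters and class limits, and leaving out each library were alternatives. A fit without ΔGm15551 replicate 1 and wild type replicate 7, and the use of library totals for list sums, separation of the classes and the libraries left out, were chosen after seeing the data. The tests were first tested on simulated data.

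The genes named by rule were the 10 genes of the class rule, the 3 most abundant tested genes of each muscle list, 15 markers of fat and muscle, and the 3 genes with the smallest p in each direction off the muscle lists. A few genes that this rule or the lists include are not reported here. Other genes named were chosen after their values were seen. Exon lengths came from GENCODE M21 and promoters from RefSeq, and Hfe2 was matched through its current symbol Hjv. Figures were drawn with matplotlib 3.10.9.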

Additional observations from a re-analysis of the deposited data

Results flagged for a closer look

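A value was set aside for a closer look where 1 of 4 libraries of a class lay far from the other libraries of that class. Of 108 groups of 4 values checked, 7 stood out, and chance alone gives about 1 in 20. In the muscle-free class Mb was at 98.3 CPM in ΔGm15551 replicate 7, with the others at 0.496 to 7.68 CPM. Cidea was at 1609 CPM in ΔGm15551 replicate 2, with the others at 2001 to 2038 CPM, and Sptb at 0.496 CPM in the same library, with the others at 0.939 to 0.974 CPM. Dio2 was at 374 CPM in ΔGm15551 replicate 7, with the others at 487 to 492 CPM. Zbtb16 was at 27.9 CPM in wild type replicate 3, with the others at 46.2 to 49.5 CPM. Ckm was at 0.065 CPM in wild type replicate 6, a single count, with the others at 0. In the muscle-rich class Adipoq was at 283 CPM in wild type replicate 7, with the others at 354 to 365 CPM.

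Muscle transcripts were also counted in the 2 libraries that the comparison does not use. ΔGm15551 replicate 5 had a share of 0.00796%, and that of wild type replicate 2 was 0.00573%, above the 0.000144% to 0.000263% of the muscle-free libraries.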

How the results depend on the processing

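The count of genes called (0, and 0 off the muscle lists) was the same under 15 alternatives chosen at the outset and moved under 8. It was 877 (758 off the muscle lists) with no filter on low counts, 180 (112) with DESeq2, 35 (3) with non-robust estimation, 38 (8) with mice of the lower number series of the labels alone, 10 (2) with 1 limit at 0.02% and 95 (44) with the log2 share as the term. The series are those of the mouse identifiers, not of the replicate numbers. The higher series holds wild type replicates 5, 6 and 7 and no ΔGm15551 mouse, so that leaving it out left 2 muscle-rich libraries, both ΔGm15551, and 3 muscle-free ones. Leaving out 1 library gave 0 to 130 calls and 0 to 62 off the muscle lists (130 and 62 without wild type replicate 5, 30 and 3 without wild type replicate 7). Without ΔGm15551 replicate 1 and wild type replicate 7 it was 49 (9). Genes at an unadjusted p under 0.05 (2010) numbered 3423 with no filter, 796 in the lower number series, 797 with 1 limit at 0.02%, 3170 with 1 limit at 0.001%, 726 without both libraries, and 866 (without ΔGm15551 replicate 1) to 3286 (without ΔGm15551 replicate 4) when 1 library was left out. DESeq2 called 7 interactions and the other alternatives tried 0. Causes were not tested, and genes off the muscle lists include muscle genes missing from those lists. Ucp1 stayed lower and uncalled under all 22 alternatives, with log2FC from -0.52 to -0.26 when 1 library was left out.

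Genes whose log2FC turned sign had no adjusted p under 0.05 in the alternatives that turned it. Leaving out 1 library gave -0.0584 to 0.108 for Fabp4, -0.455 to 0.142 for Ppargc1a, -0.284 to 0.0551 for Elovl3, -0.143 to 0.208 for Srl and -0.0421 to 0.315 for Pfkm. In the lower number series Ppargc1a was at 0.345 and Elovl3 at 0.235. Srl was at -0.0709 with 1 limit at 0.001%. Without both libraries Ppargc1a was at 0.255, Fabp4 at -0.148, Dio2 at 0.0933 and Adipoq at 0.00735.

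No paired analysis was possible because only 1 replicate number (7) occurs in both classes. With 4 libraries a class and 9680976 counts in the smallest, genes near 1 CPM rest on about 10 counts.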

Other observations

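The values in this part were picked after they were seen and are descriptions. In Fkbp5 and Zbtb16 the 2 libraries left out of the comparison were above both classes, and in Per1 and Tsc22d3 only 1 of the 2 was. Fkbp5, a co-chaperone of the glucocorticoid receptor, was at 33.6 and 43.8 CPM in ΔGm15551 replicate 5 and wild type replicate 2, against 14.2 to 22.5 CPM in the muscle-rich and 13.9 to 14.5 CPM in the muscle-free libraries. Zbtb16 was also highest in these libraries, at 58.6 and 90.7 CPM, although it was lower in the muscle-rich class than in the muscle-free one. Per1, a clock gene, was at 111 and 81.5 CPM in the libraries left out, and at 31.4 to 92.8 CPM in the muscle-rich and 29.2 to 56.3 CPM in the muscle-free libraries. Tsc22d3, a glucocorticoid-induced leucine zipper protein, overlapped, at 41.5 and 48.5 CPM against 26.2 to 43.6 and 24.96 to 37.2 CPM.

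The following genes were hand-picked from the 180 that DESeq2 called (edgeR called 0), and no list or theme was tested. Hspa8, Dnaja1 and Dnajb1, which encode a constitutive Hsp70 and its cochaperones, had DESeq2 log2FC of -0.43, -0.43 and -0.55 in the muscle-rich class. Ppp1r3b and Ppp1r3c, both glycogen-targeting subunits of protein phosphatase 1, had log2FC of -0.77 and -0.70. Higher in the muscle-rich class were Tinagl1, a matrix protein, at 326, 274, 258 and 319.6 CPM against 199, 209.7, 201 and 191 CPM, and Synm, an intermediate filament partner of desmin, at 34.3, 37.6, 33.5 and 42.5 CPM against 19.1, 26.1, 25.6 and 23.9 CPM. Hlf, a transcription factor of the clock output, was at 9.87, 16.2, 24.8 and 14.2 CPM against 25.8, 31.4, 27.4 and 42.1 CPM. In Tinagl1, Synm and Hlf the classes did not overlap.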
